A study of Homo sapiens with 12 samples.

Results

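The genes described here are 32 established targets of p53, the transcription factor that answers DNA damage and other stress, matched by symbol to the gene identifiers of both deposited count tables. All 32 were found, each as 1 of the 61860 genes in each table, and all 32 passed the expression filter in every comparison. They were measured by RNA sequencing in 22Rv1, a human prostate cancer cell line grown from a xenograft, in 12 libraries. The groups are siRNA against the transcription factor ETS1 (3 libraries), the control group of that knockdown (3), siRNA against the zinc finger gene ZNF783 (3) and a separate control group for it (3). The labels give no drug treatment for any group, and no source used here gives the siRNA sequences, what the control cells received or the time of harvest. The study as a whole concerned phosphorylated RB, ETS1 and sensitivity to CDK4/6 inhibitors. All groups are of 1 cell line, and no label says if the replicates came from separate cultures, so p-values measure the spread between these libraries, which may be technical.

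p53 is kept low in resting cells by MDM2, a ubiquitin ligase that marks it for degradation, and by the related MDM4, which blocks its activity. Stress kinases such as ATM break that hold, and p53 then binds paired half-sites in DNA and switches on genes for growth arrest, DNA repair, cell death and metabolic adjustment. MDM2 and the phosphatase PPM1D are themselves p53 targets, which closes a negative feedback loop. Targets differ widely in how strongly p53 drives them, and many also respond to other stress pathways.

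With ZNF783 siRNA, 18 of the 32 genes (56.2%) changed at an adjusted p below 0.05 in edgeR, where 25.1% of all 17630 genes tested did. Of the 32, 11 rose, against 11.3% of all genes, and 7 fell, against 13.8%. CCNG1, SESN1, TP53INP1 and the p53 inhibitors MDM2 and MDM4 were among those that rose, while GDF15, PLK2, DRAM1 and GADD45A were among those that fell. With ETS1 siRNA, none of the 32 passed the test over all 6 libraries (0.0461% of all genes did). Without ETS1 siRNA replicate 1, a library that stood apart, 14 of the 32 (43.8%) passed, where 23.0% of all 20237 genes did. PERP, DDB2 and MDM2 were higher, 3 of 32 against 9.96% of all genes, and 11 genes were lower, against 13.0%, among them FDXR, SPATA18 and TP53INP1. With a further adjustment for GC content and exon length, MDM2 and 4 of the 11 lower genes (BBC3, BAX, PLK3 and SUSD6) lost their calls. TNFRSF10B and GDF15 then passed upward, and CCNG1, RRM2B, TRIAP1 and TIGAR downward, which made 15 of 32 against 4009 of 20237 genes. Under the same adjustment with ZNF783 siRNA, MDM2, FAS, ZMAT3 and RRM2B lost their calls. TNFRSF10B and FDXR passed upward and PERP downward in that fit. The effects of the 2 siRNAs were called different for PERP, TP53INP1, SPATA18, GDF15 and SESN1.

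The libraries held 13518177 to 48996691 counts, so each of the 32 genes rested on at least 18 reads in every library. ETS1 siRNA replicate 1 differed from replicates 2 and 3 with a chi-square per degree of freedom of 40.3 and 38.9 over all genes, against 1.36 to 2.93 in the other replicate pairs of the 4 groups. Results with ETS1 siRNA are therefore given with and without it. The ETS1 transcript had at most 3 reads in any of the 12 libraries, controls included, so its level cannot check that knockdown. ZNF783 had 28.7, 27.4 and 28.0 CPM (counts scaled to a library of 1e+06 after TMM adjustment for composition) in ZNF783 siRNA libraries and 33.9, 34.9 and 35.7 CPM in their controls (log2 fold change -0.31 ± 0.0553, edgeR adjusted p = 2.46e-05). With ETS1 siRNA it had 12.5, 18.7 and 18.5 CPM in ETS1 siRNA libraries and 20.98, 21.6 and 22.3 CPM in their controls (log2 fold change -0.38 ± 0.150, edgeR adjusted p = 0.258; called lower without replicate 1, -0.23, adjusted p = 0.00146), so a lower level was measured with both siRNAs. ZNF783 shares 29.5% of its exon bases with a gene on its own strand, which makes its counts uncertain.

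The cells carried the luminal prostate markers that fit their label: all 10 were detected. Their summed level was 3673 to 3780 CPM in ETS1 siRNA libraries against 3783 to 3812 CPM in their controls, and 3460 to 3467 CPM in ZNF783 siRNA libraries against 3683 to 3724 CPM in their controls. With ZNF783 siRNA all 10 had a negative log2 fold change and 5 fell, where 13.8% of all genes fell. With ETS1 siRNA none of the 10 passed in edgeR over all libraries. An unadjusted p under 0.05 was found for 5 of the 10 and for 3535 of all 19542 genes. Without replicate 1, 5 were called lower and 1 higher, where 13.0% of all genes were lower and 9.96% higher. Of 12 markers of leukocytes, endothelium, fibroblasts and smooth muscle, 8 stayed under 1 CPM in every library, and CD3E had no reads in any. The summed level of the 12 was 61.5 to 72.5 CPM in ETS1 siRNA libraries against 61.8 to 64.3 CPM in their controls, and 39.1 to 42.2 CPM in ZNF783 siRNA libraries against 45.4 to 49.3 CPM in their controls. Most of it came from LUM and COL1A1, matrix genes, which both fell with ZNF783 siRNA (LUM, log2 fold change -0.26 ± 0.0800, edgeR adjusted p = 0.0135; COL1A1, log2 fold change -0.23 ± 0.0624, edgeR adjusted p = 0.00535). The part of either marker list in the p53 target results was not tested. In bulk RNA, fewer cells of a kind and less RNA per cell cannot be told apart.

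The 32 genes differed widely in level in these cells. Per kilobase of exon, CCNG1, an atypical cyclin, was highest in ETS1 siRNA libraries and in their controls, at 65.4 ± 8.004 and 60.2 ± 1.23 CPM per kilobase (SD, n = 3 each). PERP, a membrane protein of desmosomes and of p53-dependent death, was highest in ZNF783 siRNA libraries and in their controls, at 69.0 ± 0.250 and 69.9 ± 0.161 CPM per kilobase. TRIAP1, a small inhibitor of cell death, was the third in all 4 groups. At the low end TP53I3, an oxidoreductase, had 0.662 ± 0.0478 and 0.755 ± 0.0775 CPM per kilobase in ZNF783 siRNA libraries and their controls, and TIGAR, a sugar phosphatase, 0.327 ± 0.0171 and 0.533 ± 0.0885. The death receptors TNFRSF10A and FAS stood in the lower part of the order, at 6.15 ± 0.307 and 5.07 ± 0.342 CPM per kilobase in the ETS1 controls. Of the 31 pairs of neighbours in the order, the ranges of 24 overlapped in ETS1 siRNA libraries and of 15 in their controls, and of 13 in ZNF783 siRNA libraries and 15 in their controls.

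The 2 control groups, made as separate experiments, differed in level for some members. GDF15 averaged 17.8 ± 0.585 CPM in the ETS1 controls and 43.8 ± 2.90 CPM in the ZNF783 controls, PERP 179 ± 10.5 and 299.9 ± 0.690 CPM, and SESN1 33.1 ± 2.06 and 20.6 ± 0.802 CPM. In all, 4 members were over 1.5 times higher in the ZNF783 controls and 4 over 1.5 times higher in the ETS1 controls. The share of all genes past that limit was not counted, so these counts show nothing particular to the members. Experiment and batch cannot be told apart here, so each siRNA is compared with its own controls only.

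Because the members are defined by p53, their start sites were searched for the p53 response element, which is 2 half-sites of 10 letters with a spacer of 0 to 13 bases. RefSeq promoter windows of GRCh38.p14, 250 bases before to 50 after each start, were at hand for 26 of the 32 genes (38 windows), and not for TNFRSF10A, TNFRSF10B, TP53INP1, PHLDA3, RRM2B and GADD45A. Counting sites that keep the core C and G of both half-sites and match at least 18 of the 20 consensus letters, 5 of the 26 genes (19.2%) held one, against 3.62% of the 27305 genes with a window. DDB2 matched all 20 letters, which only 10 of the 35116 windows did. MDM2, FAS, AEN and FDXR matched 18, and ZMAT3, PLK2, SESN1 and GDF15 came 1 letter short at 17. These 9 are shown because they include genes that rose, fell or did not pass with ZNF783 siRNA; capitals mark the half-sites.
DDB2 (chr11:47214954-47215023, plus strand): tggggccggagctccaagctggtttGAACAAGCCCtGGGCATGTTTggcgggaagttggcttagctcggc
MDM2 (chr12:68808898-68808967, plus strand): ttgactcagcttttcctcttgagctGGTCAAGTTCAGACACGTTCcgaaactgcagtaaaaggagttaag
FAS (chr10:88991284-88991353, plus strand): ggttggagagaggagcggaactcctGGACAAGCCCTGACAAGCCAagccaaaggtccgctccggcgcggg
AEN (chr15:88621281-88621350, plus strand): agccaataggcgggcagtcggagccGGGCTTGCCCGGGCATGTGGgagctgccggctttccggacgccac
FDXR (chr17:74872971-74873050, minus strand): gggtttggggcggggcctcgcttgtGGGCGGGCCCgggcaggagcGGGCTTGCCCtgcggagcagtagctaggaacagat
ZMAT3 (chr3:179071842-179071917, minus strand): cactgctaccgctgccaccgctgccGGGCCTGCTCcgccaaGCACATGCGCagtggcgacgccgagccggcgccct
PLK2 (chr5:58460171-58460243, minus strand): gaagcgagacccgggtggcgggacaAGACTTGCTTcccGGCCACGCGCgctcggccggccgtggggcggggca
SESN1 (chr6:109008993-109009062, minus strand): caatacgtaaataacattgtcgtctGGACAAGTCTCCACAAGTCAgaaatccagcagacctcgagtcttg
GDF15 (chr19:18386161-18386207, plus strand): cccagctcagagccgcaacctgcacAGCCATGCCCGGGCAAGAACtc
Calls among these 9 genes went in both directions. With ZNF783 siRNA, of the 5 genes with a site, MDM2 and FAS rose, AEN fell, and DDB2 and FDXR did not pass. Of the 4 that came 1 letter short, ZMAT3 and SESN1 rose and PLK2 and GDF15 fell. The share of all genes at 17 letters was not counted. The search was chosen after the values were seen, matches are a description and not sites of binding, and known p53 elements outside these windows, such as those in introns, are not covered.

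The core letters that ETS proteins bind, searched as CCGGAA on both strands, occurred in the windows of 6 of the 26 genes (23.1%), against 20.1% of all genes with a window. The 6 are AEN, FDXR, MDM4, PERP, TP53I3 and XPC. PERP is shown in full because it had the highest fold change of the members with ETS1 siRNA; its core is in capitals.
PERP (chr6:138107370-138107669, minus strand): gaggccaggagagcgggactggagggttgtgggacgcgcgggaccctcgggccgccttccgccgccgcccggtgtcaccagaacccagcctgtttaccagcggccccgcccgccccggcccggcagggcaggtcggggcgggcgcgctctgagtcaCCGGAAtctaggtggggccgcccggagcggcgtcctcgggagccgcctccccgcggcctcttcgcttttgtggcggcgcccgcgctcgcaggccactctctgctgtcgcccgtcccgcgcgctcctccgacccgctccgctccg
Of these 6 genes, with ETS1 siRNA replicate 1 left out, PERP passed upward, FDXR downward, and AEN, MDM4, TP53I3 and XPC did not pass.

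With ZNF783 siRNA the median log2 fold change of the 32 members was 0.03, that of all genes 0.00. The lowest siRNA library lay above the highest control, or the highest below the lowest, for 19 of 32 members (59.4%), and for 38.2% of all genes. No test of these shares was made, since the members were chosen with results of these data known.

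With ETS1 siRNA over all 6 libraries, edgeR called 0 of 32 members. An unadjusted p under 0.05 was found for 7 members and for 3535 of all 19542 genes. DESeq2 called 3 members (PERP higher, TP53INP1 and SPATA18 lower) and 734 of all genes, and limma-voom 0 and 23. Only 9 of 19542 genes (0.0461%) were called at all in the edgeR fit. Groups did not overlap for 15 members (46.9%), 3 higher and 12 lower, and for 35.3% of all genes. The median log2 fold change of the members was -0.08 over all libraries and -0.06 without that replicate, beside 0.01 and -0.00 for all genes.

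**Figure D1:**
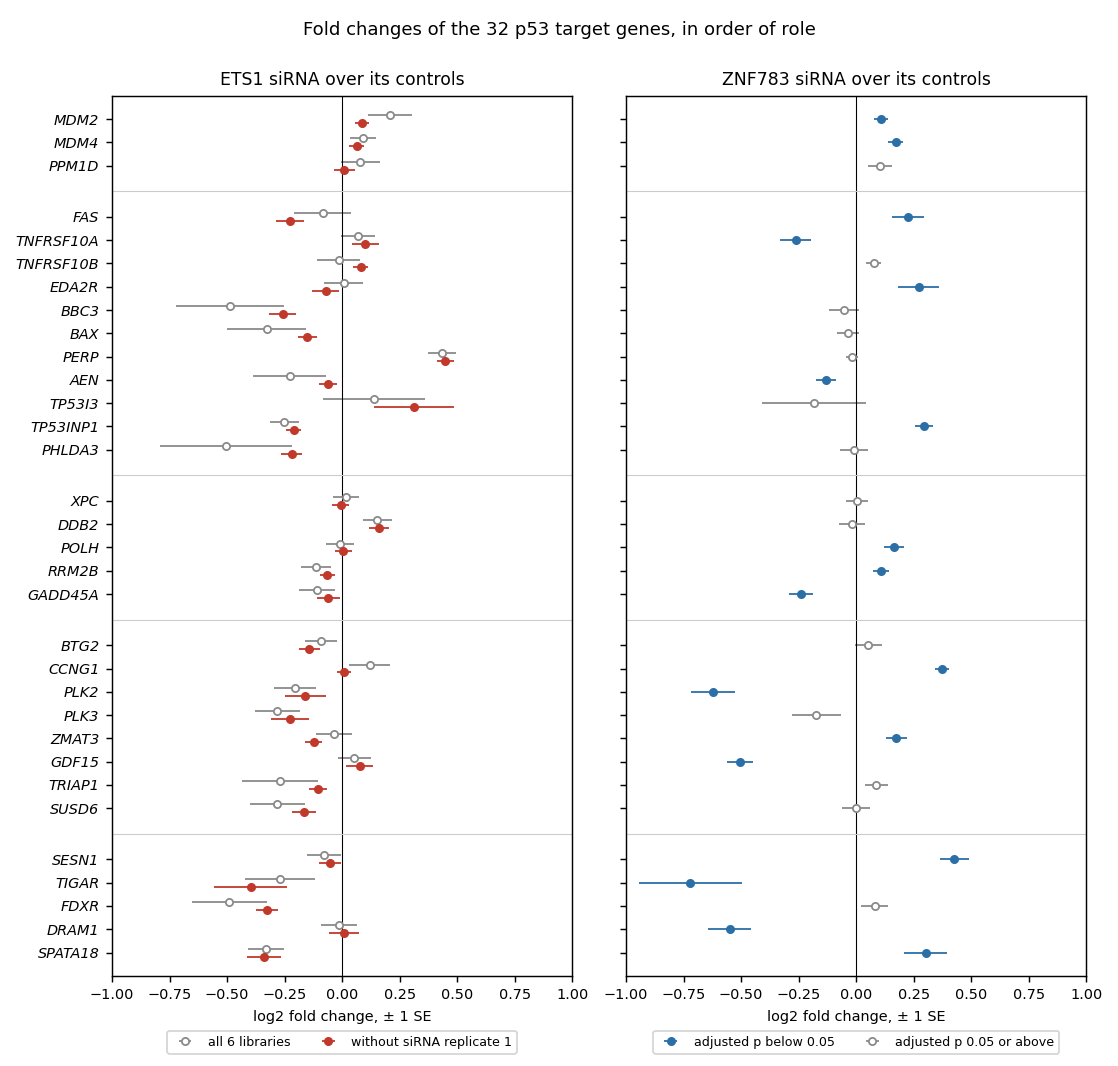
Log2 fold changes (horizontal axis, ± 1 SE) of the 32 p53 target genes with ETS1 siRNA (left; open grey, all 6 libraries; red, without siRNA replicate 1) and ZNF783 siRNA (right; blue, adjusted p below 0.05), each over its own controls, from the negative regulators at the top to metabolic genes at the bottom. Leaving out the replicate narrows the bars on the left, and on the right 11 blue points lie above 0 and 7 below.

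Of the negative regulators of p53, MDM2 and MDM4 rose with ZNF783 siRNA, each by a log2 fold change under 0.2, where 11.3% of all genes rose. MDM2 (chromosome 12, 68808176 to 68850686 on GRCh38) had 187, 187 and 179 CPM in ZNF783 siRNA libraries and 173, 168 and 174 CPM in their controls, without overlap (log2 fold change 0.11 ± 0.0299, edgeR adjusted p = 0.00560). MDM4 had 172, 162 and 182 CPM in ZNF783 siRNA libraries, all above the 152, 149.8 and 156 CPM of their controls (log2 fold change 0.17 ± 0.0333, edgeR adjusted p = 1.08e-04). PPM1D, the phosphatase that resets damage signalling, overlapped between the groups, with 36.7, 38.4 and 36.0 CPM in ZNF783 siRNA libraries and 36.6, 33.8 and 33.3 CPM in their controls (log2 fold change 0.10 ± 0.0535, edgeR adjusted p = 0.160). So 2 of the 3 rose with ZNF783 siRNA; the call for MDM2 was lost with an adjustment for GC and exon length (log2 fold change 0.06, adjusted p = 0.129; 0.00215 to 0.580 over 16 alternative settings).

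With ETS1 siRNA none of the 3 passed over all libraries. MDM2 had 249, 201 and 194 CPM in ETS1 siRNA libraries and 179.9, 191 and 186 CPM in their controls (log2 fold change 0.21 ± 0.0967, edgeR adjusted p = 0.305), with replicate 1 the highest and all 3 above the controls. Without replicate 1 MDM2 passed at a smaller size (log2 fold change 0.08, adjusted p = 0.0353; 0.0353 to 0.581 over 17 alternative settings), and with the GC and length adjustment added it did not (0.03, adjusted p = 0.394). MDM4 had 217, 214 and 202 CPM in ETS1 siRNA libraries and 202, 204 and 189 CPM in their controls (log2 fold change 0.09 ± 0.0565, edgeR adjusted p = 0.405). PPM1D had 41.9, 38.3 and 34.4 CPM in ETS1 siRNA libraries and 36.0, 36.9 and 35.4 CPM in their controls (log2 fold change 0.08 ± 0.0836, edgeR adjusted p = 0.601). Both overlapped between the groups.

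Among the 11 genes of death receptors and apoptosis, 3 rose and 2 fell with ZNF783 siRNA, where 11.3% of all genes rose and 13.8% fell. TP53INP1, a nuclear and autophagosome protein that promotes p53 activity and cell death, had 104, 96.8 and 100.4 CPM in ZNF783 siRNA libraries, all above the 83.9, 77.3 and 84.2 CPM of their controls (log2 fold change 0.29 ± 0.0382, edgeR adjusted p = 7.37e-08). TNFRSF10A, a receptor of the death ligand TRAIL, had 20.5, 18.4 and 18.8 CPM in ZNF783 siRNA libraries, all below the 22.4, 22.6 and 24.3 CPM of their controls (log2 fold change -0.26 ± 0.0685, edgeR adjusted p = 0.00313). TNFRSF10B, another TRAIL receptor, had 0.08 on the log2 scale (edgeR adjusted p = 0.0874), positive where that of TNFRSF10A was negative. The 2 genes were not tested against each other. FAS, the receptor of Fas ligand, rose (log2 fold change 0.22), as did EDA2R, the ectodysplasin A2 receptor (0.27), and AEN, a nuclease of apoptotic cells, fell (-0.13). The mitochondrial death effectors did not pass, with -0.05 for BBC3 (PUMA) and -0.04 for BAX, nor did PERP (-0.02), TP53I3 (-0.18) or PHLDA3, an inhibitor of AKT (-0.01).

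The calls for FAS, EDA2R and AEN with ZNF783 siRNA lay near the threshold: each was lost on leaving out any of several libraries, while the log2 fold changes over the alternatives stayed at 0.16 to 0.27 for FAS, 0.24 to 0.33 for EDA2R and -0.16 to -0.10 for AEN. That of FAS (adjusted p = 0.0161) was lost without siRNA replicate 3, control replicate 2 or control replicate 3, at an adjusted p of 0.0630, 0.0699 and 0.0515 (0.0109 to 0.339 over 16 alternative settings), and also with the GC and length adjustment (0.16, adjusted p = 0.116). That of EDA2R (0.0210) was lost without siRNA replicates 1 or 2 or control replicates 1 or 2, at 0.0918, 0.0841, 0.0752 and 0.0603 (0.00882 to 0.159 over 16 alternative settings). That of AEN (0.0235) was lost without siRNA replicate 2, control replicate 1 or control replicate 2, at 0.0941, 0.163 and 0.0557 (0.0122 to 0.611 over 16 alternative settings). TNFRSF10B, in turn, passed upward without siRNA replicate 2 (0.0455; 0.0343 to 0.722 over 16 alternative settings), and it passed upward with the GC and length adjustment (0.09, adjusted p = 0.0365). With that adjustment PERP passed downward (-0.08, adjusted p = 0.0156; 0.0156 to 0.874 over 16 alternative settings). TNFRSF10A shares 16.6% of its exon bases with genes on the opposite strand, and PHLDA3 19.1% with a gene on its own strand, so their counts are uncertain.

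With ETS1 siRNA, PERP had the highest fold change of these 11 genes. PERP (chromosome 6, 138088505 to 138107511, minus strand) had 235, 251 and 239.8 CPM in ETS1 siRNA libraries and 168, 189 and 180.2 CPM in their controls. All 3 siRNA libraries, replicate 1 included, lay above all 3 controls. The log2 fold change was 0.43 ± 0.0618 and did not pass over all genes (edgeR adjusted p = 0.0834); without replicate 1 it was 0.45 and passed (adjusted p = 1.35e-08; 1.35e-08 to 0.529 over 17 alternative settings). TP53INP1 had 97.8, 109 and 107.0 CPM in ETS1 siRNA libraries, all below the 122, 128 and 124 CPM of their controls (log2 fold change -0.25 ± 0.0617, edgeR adjusted p = 0.152). Without replicate 1 its log2 fold change was -0.21 (adjusted p = 8.78e-07; 3.68e-11 to 0.538 over 17 alternative settings).

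Of the other 9, FAS, BBC3, BAX and PHLDA3 passed downward without replicate 1, with log2 fold changes of -0.23, -0.26, -0.15 and -0.22. BBC3 had 11.2, 22.2 and 21.4 CPM in ETS1 siRNA libraries and 26.2, 23.4 and 27.9 CPM in their controls, with replicate 1 lowest. BAX, the pore former of the mitochondrial outer membrane, had 29.6, 46.8 and 48.1 CPM in ETS1 siRNA libraries and 50.5, 52.2 and 54.1 CPM in their controls, again lowest in replicate 1 and without overlap. With the GC and length adjustment and without replicate 1, BBC3 (-0.10) and BAX (-0.07) no longer passed, FAS (-0.31) and PHLDA3 (-0.13) still did, and TNFRSF10B passed upward (0.10). TNFRSF10A, EDA2R, AEN and TP53I3 passed in neither of these fits.

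Of the 5 genes of DNA repair and nucleotide supply, 2 rose and 1 fell with ZNF783 siRNA, where 11.3% of all genes rose and 13.8% fell. With ZNF783 siRNA, POLH, the polymerase that copies past ultraviolet lesions, had 65.5, 61.5 and 63.8 CPM in siRNA libraries, all above the 57.1, 54.6 and 58.8 CPM of the controls (log2 fold change 0.16 ± 0.0431, edgeR adjusted p = 0.00362). GADD45A, a stress protein that binds PCNA and activates p38 signalling, had 37.1, 33.2 and 36.5 CPM in ZNF783 siRNA libraries, all below the 42.8, 42.1 and 41.5 CPM of the controls (log2 fold change -0.24 ± 0.0516, edgeR adjusted p = 3.84e-04). RRM2B, the ribonucleotide reductase subunit that p53 induces, rose by a log2 fold change of 0.11 (adjusted p = 0.0187), which became 0.02 with the GC and length adjustment and also lost its call without siRNA replicate 2 or control replicate 2 (0.0976 and 0.110; 0.00894 to 0.651 over 16 alternative settings). The damage recognition proteins of nucleotide excision repair, XPC and DDB2, had log2 fold changes of 0.00 and -0.02 and did not pass. XPC shares 30.4% of its exon bases with genes on the opposite strand, and the counting told no strands apart.

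With ETS1 siRNA, DDB2 was the 1 repair gene of the 5 that passed without replicate 1, where 23.0% of all genes did. DDB2 had 39.8, 41.9 and 40.4 CPM in ETS1 siRNA libraries, all above the 37.7, 35.1 and 37.1 CPM of the controls (log2 fold change 0.15 ± 0.0619, edgeR adjusted p = 0.263), and it passed without replicate 1 (0.16, adjusted p = 0.00391; 2.14e-04 to 0.589 over 17 alternative settings). The complete response element shown for DDB2 lies in its own promoter window. The other 4 did not pass without replicate 1, from -0.06 for RRM2B to 0.00 for POLH; with the GC and length adjustment added RRM2B passed downward (-0.17).

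Genes of growth arrest, kinases and secreted signals held the 2 smallest adjusted p with ZNF783 siRNA, those of CCNG1 and GDF15. CCNG1 (chromosome 5, 163437569 to 163446151) had 167, 171 and 175 CPM in ZNF783 siRNA libraries, all above the 134, 127 and 134 CPM of their controls (log2 fold change 0.37 ± 0.0315, edgeR adjusted p = 1.44e-12), the smallest adjusted p of the 32 genes. GDF15 (chromosome 19, 18374731 to 18389176), a secreted stress signal of the TGF-beta family, had 31.5, 32.3 and 27.8 CPM in ZNF783 siRNA libraries, all below the 43.1, 47.0 and 41.3 CPM of the controls (log2 fold change -0.51 ± 0.0567, edgeR adjusted p = 4.58e-09). PLK2, a polo-like kinase of centriole duplication, had 7.83, 6.98 and 7.75 CPM in ZNF783 siRNA libraries and 11.9, 10.8 and 11.9 CPM in their controls (log2 fold change -0.62 ± 0.0973, edgeR adjusted p = 3.05e-06). ZMAT3, an RNA-binding zinc finger protein that suppresses tumours, had 56.6, 59.3 and 59.4 CPM in ZNF783 siRNA libraries, all above the 53.3, 51.8 and 50.1 CPM of the controls (log2 fold change 0.17 ± 0.0440, edgeR adjusted p = 0.00220). The call for ZMAT3 was lost with the GC and length adjustment (0.11, adjusted p = 0.0731; 0.00102 to 0.209 over 16 alternative settings). The other 4, the antiproliferative gene BTG2 (0.05), the stress kinase PLK3 (-0.17), TRIAP1 (0.09) and the membrane protein gene SUSD6 (-0.00), did not pass.

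With ETS1 siRNA the same 8 genes did not pass over all libraries. Without replicate 1, 4 passed downward, where 13.0% of all genes did: BTG2 (-0.14), PLK3 (-0.23), ZMAT3 (-0.12) and SUSD6 (-0.16). For ZMAT3 the left-out replicate 1, at 75.55 CPM, lay above all its controls, at 68.8 to 69.97 CPM. CCNG1 had 230.5, 193 and 184 CPM in ETS1 siRNA libraries and 182, 189 and 188 CPM in their controls, with replicates 1 and 2 above the controls' range and replicate 3 within it. Its log2 fold change was 0.12 over all libraries, 0.01 without replicate 1 and -0.08 with the GC and length adjustment as well, where it passed downward (adjusted p = 0.0131; 0.0131 to 0.867 over 17 alternative settings). GDF15 overlapped between the groups, with 17.7, 19.5 and 18.3 CPM in ETS1 siRNA libraries and 17.6, 17.4 and 18.5 CPM in their controls (log2 fold change 0.05 ± 0.0725, edgeR adjusted p = 0.688). With the GC and length adjustment its log2 fold change was 0.28 over all libraries (adjusted p = 0.238) and 0.19 without replicate 1, where it passed upward (adjusted p = 0.00989; 0.00989 to 0.937 over 17 alternative settings). In that last fit PLK3 (-0.13) and SUSD6 (-0.13) lost their calls and TRIAP1 passed downward (-0.14, adjusted p = 0.00605; 0.00605 to 0.657 over 17 alternative settings).

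**Figure D2:**
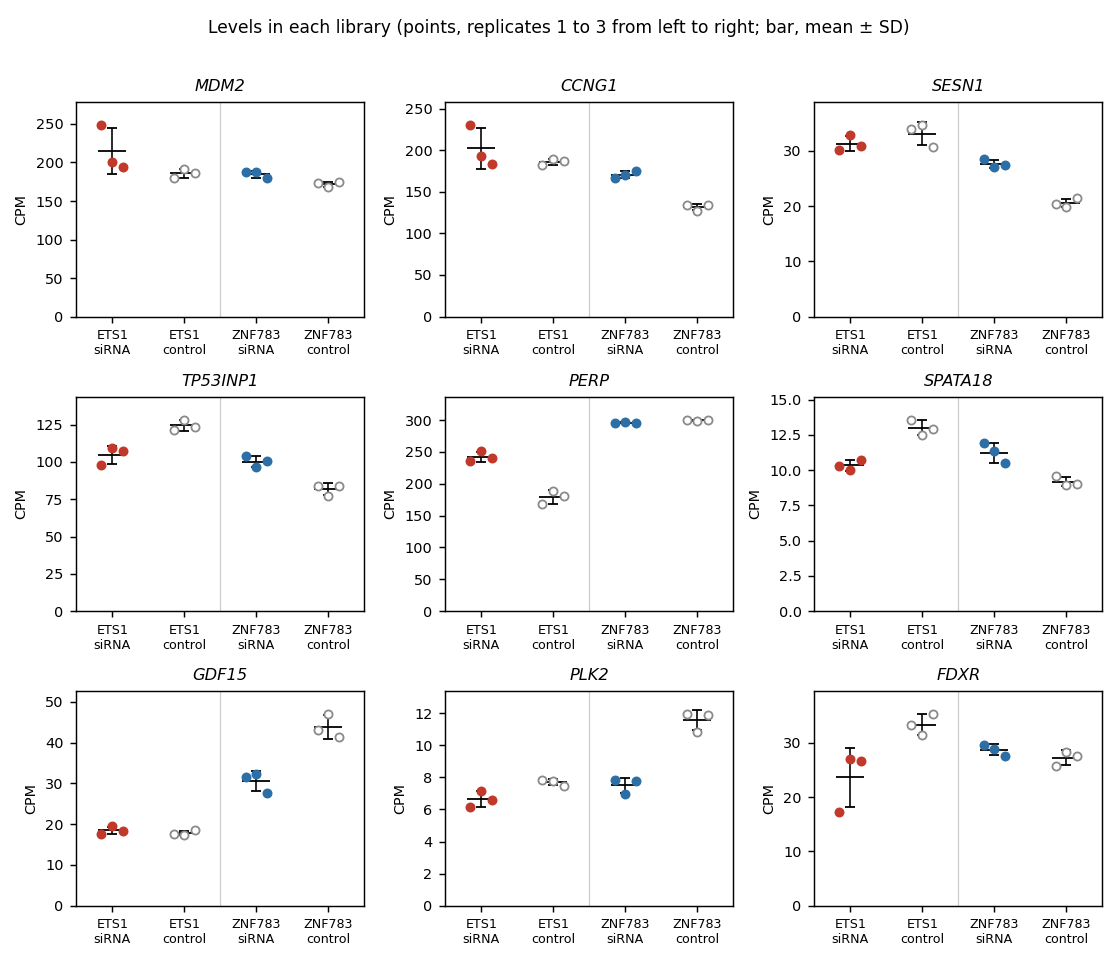
Levels in CPM (vertical axis, from 0) of 9 p53 target genes in each of the 12 libraries, by group; filled points are siRNA libraries, open points controls, and bars the mean ± SD of 3. ETS1 siRNA replicate 1, the leftmost point of each panel, is apart for MDM2, CCNG1 and FDXR and close to its replicates for PERP and SPATA18.

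The metabolic and organelle genes gave 2 that rose and 2 that fell with ZNF783 siRNA, where 11.3% of all genes rose and 13.8% fell. SESN1 (chromosome 6, 108986437 to 109094819, minus strand), a leucine and redox sensor that restrains mTORC1, had 28.5, 27.0 and 27.4 CPM in ZNF783 siRNA libraries, all above the 20.4, 19.9 and 21.4 CPM of their controls (log2 fold change 0.43 ± 0.0633, edgeR adjusted p = 1.12e-06). DRAM1, a lysosomal membrane protein of autophagy, had 9.38, 9.67 and 8.86 CPM in ZNF783 siRNA libraries, all below the 14.2, 11.6 and 15.03 CPM of the controls (log2 fold change -0.55 ± 0.0947, edgeR adjusted p = 1.59e-05). SPATA18, which directs the removal of damaged mitochondrial contents, had 11.9, 11.3 and 10.5 CPM in ZNF783 siRNA libraries and 9.55, 8.93 and 9.04 CPM in their controls, without overlap (log2 fold change 0.30 ± 0.0937, edgeR adjusted p = 0.0134). TIGAR fell (-0.72, adjusted p = 0.0133), but at 1.24 to 2.54 CPM in these 6 libraries and with 45.6% of its exon bases shared with 2 other genes its value is uncertain. FDXR, the ferredoxin reductase of mitochondrial electron transfer, did not pass (0.08), but passed upward with the GC and length adjustment (0.21, adjusted p = 0.00716; 0.00716 to 0.855 over 16 alternative settings). The call of SPATA18 was lost without siRNA replicate 1 (0.0876; 0.00994 to 0.0923 over 16 alternative settings), and that of TIGAR without siRNA replicate 1 or control replicate 3 (0.0627 and 0.105; 0.0114 to 0.105 over 15 alternative settings).

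With ETS1 siRNA, FDXR and SPATA18 passed downward without replicate 1, where 13.0% of all genes did. None of these metabolic and organelle genes passed over all libraries. FDXR (chromosome 17, 74862497 to 74873031, minus strand) had 17.3, 27.0 and 26.6 CPM in ETS1 siRNA libraries, all below the 33.4, 31.4 and 35.3 CPM of the controls (log2 fold change -0.49 ± 0.163, edgeR adjusted p = 0.216). Without replicate 1, its lowest library, FDXR passed with a log2 fold change of -0.33 (adjusted p = 5.40e-07; 5.40e-07 to 0.567 over 17 alternative settings). SPATA18 (chromosome 4, 52051331 to 52097292) had 10.3, 9.98 and 10.7 CPM in ETS1 siRNA libraries, all below the 13.6, 12.5 and 12.9 CPM of the controls (log2 fold change -0.33 ± 0.0777, edgeR adjusted p = 0.146). Replicate 1 of SPATA18 lay between its 2 replicates, and without it the log2 fold change was -0.34 (adjusted p = 3.62e-04; 1.44e-04 to 0.538 over 17 alternative settings). SESN1, TIGAR and DRAM1 did not pass without replicate 1, at -0.05, -0.40 and 0.01; with the GC and length adjustment added TIGAR passed downward (-0.43, adjusted p = 0.0454; 0.0454 to 0.618 over 16 alternative settings).

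The effects of the 2 siRNAs were then set against each other. Tested as the ETS1 siRNA effect minus the ZNF783 siRNA effect in 1 fit of all 12 libraries, 5 of 32 members (15.6%) were called, against 1.68% of 19594 genes. Calls above 0 were 2 of 32, against 1.11% of all genes, and calls below 0 were 3, against 0.577%. PERP differed by 0.47 ± 0.0640 on the log2 scale (edgeR adjusted p = 0.00319): all 3 ETS1 siRNA libraries were above their controls, while ZNF783 siRNA libraries had 295, 297 and 295 CPM, just below the 301, 299 and 299.7 CPM of theirs. TP53INP1 differed by -0.53 ± 0.0751 (adjusted p = 0.00393) and SPATA18 by -0.62 ± 0.108 (adjusted p = 0.0118); for both, all ETS1 siRNA libraries were below their controls and all ZNF783 siRNA libraries above theirs. GDF15 differed by 0.58 ± 0.104 (adjusted p = 0.0127), with the ETS1 siRNA libraries overlapping their controls and the ZNF783 siRNA libraries below theirs. SESN1 differed by -0.49 ± 0.0901 (adjusted p = 0.0158), with 30.2, 32.8 and 30.9 CPM in ETS1 siRNA libraries and 33.9, 34.7 and 30.8 CPM in their controls. The control levels of these 5 genes also differed between the experiments. The ratio of the ZNF783 to the ETS1 control mean was 1.67 for PERP, 0.657 for TP53INP1, 0.707 for SPATA18, 2.46 for GDF15 and 0.621 for SESN1. For each, the 2 siRNA means lay closer together than the 2 control means. The part of these unlike control levels in the calls was not tested.

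The calls for PERP and TP53INP1 held in each of the 23 alternatives tried. Those for SPATA18, GDF15 and SESN1 were lost with the replicate block, at an adjusted p below 0.01, and on leaving out some single libraries. That of SPATA18 was lost without ZNF783 siRNA replicate 1 (adjusted p = 0.0507; 2.94e-05 to 0.0828 over 22 alternative settings) and that of GDF15 without ETS1 control replicate 1 (0.0508; 9.79e-08 to 0.0560 over 22 alternative settings). That of SESN1 was lost without ETS1 control replicates 1 or 2, ZNF783 siRNA replicate 1 or ZNF783 control replicates 1 or 2, at an adjusted p of 0.0527 to 0.0617 (3.58e-06 to 0.0823 over 22 alternative settings). DRAM1, not called over all libraries, passed without ZNF783 control replicate 2 (0.65, adjusted p = 0.0250; 1.21e-04 to 0.157 over 22 alternative settings). Without ETS1 siRNA replicate 1, 15 of 32 members (46.9%) were called, against 13.7% of 20018 genes. The added ones were TNFRSF10A, PLK2 and DRAM1 above 0 and FAS, EDA2R, RRM2B, CCNG1, ZMAT3, TRIAP1 and FDXR below 0.

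**Figure D3:**
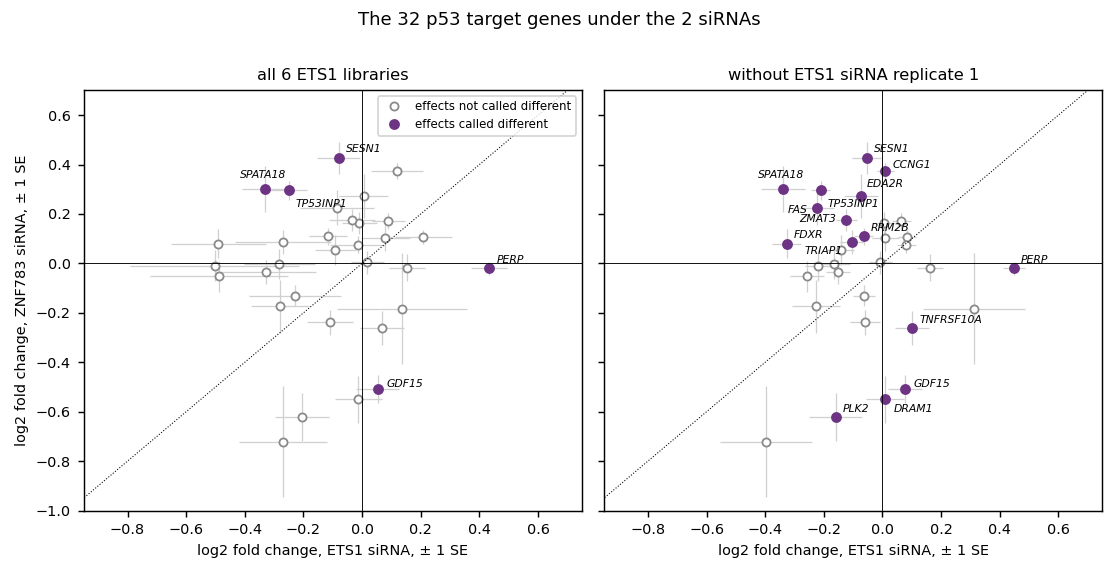
Log2 fold change with ETS1 siRNA (horizontal) against that with ZNF783 siRNA (vertical), each over its own controls and ± 1 SE, for the 32 genes, over all ETS1 libraries (left) and without ETS1 siRNA replicate 1 (right). Purple points are genes whose 2 effects were called different, 5 on the left and 15 on the right; the dotted line marks equal effects.

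Across the 32 genes the 2 sets of fold changes showed little relation as a description, with a Spearman coefficient of 0.085 over all ETS1 libraries and -0.071 without ETS1 siRNA replicate 1. The 2 experiments share no libraries. Without that replicate, 5 members were called with both siRNAs: MDM2 was higher with both, and FAS, TP53INP1, ZMAT3 and SPATA18 were lower with ETS1 siRNA and higher with ZNF783 siRNA. The left-out ETS1 siRNA replicate 1 lay above all its controls for FAS and ZMAT3, against the direction of the call. For TP53INP1 and SPATA18 it lay below all its controls, as replicates 2 and 3 did. Of 17548 genes tested in both fits, 10.9% were called with both siRNAs, 9.03% in the same direction and 1.85% in opposite directions. With the GC and length adjustment MDM2 lost both calls, and FAS and ZMAT3 lost theirs with ZNF783 siRNA. In the same fits without it 5 members, TNFRSF10B, TP53I3, XPC, TRIAP1 and PPM1D, were called with neither.

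The wider p53 pathway was followed through 3 lists. Of 17 genes that control p53, such as the damage kinases and histone acetyltransferases, 16 were tested, and 3 rose and none fell with ZNF783 siRNA, with a median log2 fold change of 0.03 beside 0.00 for all genes. Over all genes 25.1% were called in that fit, 11.3% upward and 13.8% downward, so the share called here was not above the background. They are ATM (0.17), the kinase that senses double-strand breaks, and NPM1 (0.09) and RPL5 (0.08), nucleolar and ribosomal proteins that bind MDM2. COP1, another ubiquitin ligase of p53, had 0.10 (adjusted p = 0.0595). With ETS1 siRNA edgeR called 0 of the 16 over all libraries. An unadjusted p under 0.05 was found for 4 of them and for 3535 of all 19542 genes. Without replicate 1, 3 passed upward and 2 downward, with a median of 0.00 beside -0.00, where 23.0% of all genes were called. RPL5 was lower in that fit (-0.17), the opposite of its direction with ZNF783 siRNA. CREBBP was lower too (-0.11), and the kinase genes ATM (0.13) and CHEK1 (0.17) were higher. For CREBBP the left-out replicate 1, at 142 CPM, lay above all its controls, at 106 to 114 CPM. The effects of the 2 siRNAs on RPL5 differed by -0.36 over all libraries, which was not called (adjusted p = 0.146).

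Of 40 further p53 targets, 37 were tested. With ZNF783 siRNA 6 rose and 7 fell (median 0.03), where 11.3% of all genes rose and 13.8% fell. They were led by CYFIP2 (-0.25), IER5 (-0.36), the heat shock protein gene HSPA4L (0.21) and the semaphorin receptor gene PLXNB2 (-0.15). With ETS1 siRNA 0 of the 37 passed over all libraries in edgeR. An unadjusted p under 0.05 was found for 12 of them and for 3535 of all 19542 genes. Without replicate 1, 6 passed upward and 14 downward (median -0.09), against 9.96% and 13.0% of all genes. CDKN1A, the p21 inhibitor of cyclin-dependent kinases, had 172, 216 and 210.5 CPM in ETS1 siRNA libraries, all below the 279.5, 270.4 and 286 CPM of their controls (log2 fold change -0.48 ± 0.0902, edgeR adjusted p = 0.105), and its log2 fold change without replicate 1 was -0.39. With ZNF783 siRNA the CDKN1A groups overlapped (-0.02, adjusted p = 0.620), and the 2 effects were called different (-0.44, adjusted p = 0.0335). KITLG, the ligand of the KIT receptor (0.42), and ISCU, an iron-sulfur scaffold (-0.27), were the other 2 of the 3 of 37 called in that test, against 1.68% of all genes. TRAF4, a signalling adaptor (-0.38), NINJ1, a protein of membrane rupture (-0.33), and KITLG (0.37) came next after CDKN1A with ETS1 siRNA without replicate 1.

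Mitotic genes that p53 is known to lower through p21 and the DREAM complex were also followed. With ZNF783 siRNA, of 14 tested, 10 rose and none fell, with a median log2 fold change of 0.17 beside 0.00 for all genes, where 11.3% of all genes rose and 13.8% fell. Among the 10 are CENPF (0.31), KIF23 (0.25), ECT2 (0.20) and CDC25C (0.48). With ETS1 siRNA edgeR called 0 of 14 over all libraries. An unadjusted p under 0.05 was found for 6 of them and for 3535 of all 19542 genes. Without replicate 1, 6 passed upward and 1 downward (median 0.06), against 9.96% and 13.0% of all genes. ECT2 (0.19), CDK1 (0.18) and BUB1 (0.19) were higher in that fit, and PLK1, a mitotic kinase, lower (-0.30). None of the 14 was called in the difference of the 2 effects over all libraries by edgeR. In that test 5 of the 14 had an unadjusted p under 0.05, as did 2928 of all 19594 genes.

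Fold changes ran with the GC content of genes in both experiments, so this property is given beside the members' values. GC content was taken from the longest transcript of each gene. Over all genes, its Spearman coefficient with fold change was -0.50 with ETS1 siRNA, -0.36 without its replicate 1 and -0.38 with ZNF783 siRNA. Over the 32 members it was -0.33, -0.13 and -0.60, described without a test. The 17 members at or under the members' median of 47.2% GC had a median log2 fold change of 0.16 with ZNF783 siRNA, against -0.04 for the 15 above it. CCNG1 (38.2% GC) and TP53INP1 (39.6%) are on the low side and GDF15 (62.9%) on the high side. Their log2 fold changes with ZNF783 siRNA under the GC and length adjustment were 0.30, 0.23 and -0.38, and all 3 still passed. With that adjustment 9 of the 32 members rose and 8 fell, where 1599 of all 17630 genes rose and 1845 fell.

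**Figure D4:**
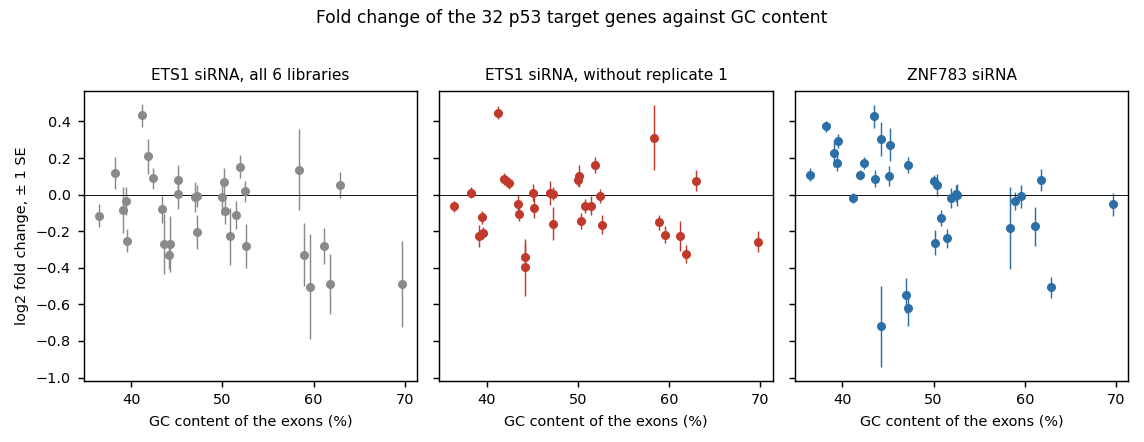
Log2 fold change ± 1 SE (vertical) against GC content of the longest transcript in percent (horizontal, labelled as of the exons) for the 32 genes. Panels show ETS1 siRNA over all 6 libraries, without its replicate 1, and ZNF783 siRNA. The Spearman coefficients are -0.33, -0.13 and -0.60 from left to right.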

How the data were processed

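RNA was sequenced in 12 libraries of 22Rv1 cells, 3 in each of 4 groups taken from the labels. The authors deposited raw read counts per gene in 1 table per knockdown; per the file headers they were made with featureCounts 2.0.1 from paired-end alignments over exons of a GRCh38 annotation of release 107, with no strand option, although per the labels' protocols the kit marks strands. No source used here names the version of the aligner. No column was left unmapped (0), and 99.8% of genes matched a symbol.

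Libraries of each siRNA were compared with their own controls in edgeR 4.0.16 (default expression filter, TMM scaling, robust quasi-likelihood F test, group as the only term, Benjamini-Hochberg adjustment over all genes tested, called below 0.05). The difference of the 2 effects was a contrast in 1 fit of all 12 libraries. Levels are TMM-scaled CPM; errors are SD for levels and standard errors for log2 fold changes. The fits were tested on simulated data with known changes. All simulated libraries had the same spread, with no outlying one. That test therefore covers neither the ETS1 fit over all 6 libraries nor the fit of all 12 libraries, as both include ETS1 siRNA replicate 1. Coordinates, exon overlaps and GC content come from GENCODE release 29, promoter windows from RefSeq on GRCh38.p14. Depth was 13518177 to 48996691 counts, and 3 counts, the floor for detection, correspond to 0.0612 to 0.222 CPM; this covers counting error only.

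The members and gene lists were chosen with earlier results of these data known. MDM2, MDM4 and PPM1D are given in every library; so are the called members of each comparison, up to the 12 with the smallest adjusted p, or the 4 smallest where fewer than 4 were called, up to 6 in the difference, and from each pathway list up to 4 genes per comparison. BBC3, BAX, DDB2, CCNG1 and GDF15 with ETS1 siRNA and CDKN1A were given in every library after their values were seen. Alternatives were DESeq2 1.42.0 size factors and Wald test, library size alone, no filter or 1 CPM in 3 libraries, limma-voom (limma 3.58.1), the replicate block, a GC and length offset (mgcv 1.9.3), all 12 libraries in one fit, an adjusted p below 0.01 and leaving out each library.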

Additional observations from a re-analysis of the deposited data

Results flagged for a closer look

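The effects of the 2 siRNAs on 5 p53 targets were called different in the fit of all 12 libraries, as the ETS1 siRNA effect minus the ZNF783 siRNA effect on the log2 scale. PERP differed by 0.47: 3 of 3 ETS1 siRNA libraries were above all their controls, and 3 of 3 ZNF783 siRNA libraries slightly below theirs. TP53INP1 differed by -0.53 and SPATA18 by -0.62, each lower than the controls in 3 of 3 ETS1 siRNA libraries and higher in 3 of 3 ZNF783 siRNA libraries. GDF15 differed by 0.58 and SESN1 by -0.49, where the ETS1 siRNA libraries overlapped their controls. The 2 control groups also differed in level for all 5, with ZNF783 to ETS1 control ratios from 0.621 (SESN1) to 2.46 (GDF15). The part of these unlike control levels in the calls was not tested.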

How the results depend on the processing

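Over all ETS1 libraries edgeR called 9 genes and 0 members. Other settings called 253 genes and 1 member (no expression filter), 734 and 3 (DESeq2), 35 and 0 (GC and length adjustment), 1875 and 4 (all 12 libraries in one fit) and 23 and 0 (limma-voom); an adjusted p below 0.01 and the replicate block, with or without that adjustment, called 0 and 0. Leaving out 1 library gave 0 to 4649 genes and 0 to 14 members, where all but ETS1 siRNA replicate 1 gave 0. Without it and with the GC and length adjustment, added after seeing the data, 4009 genes and 15 members were called, and 2 members passed against the sign they had over all libraries (TNFRSF10B 0.101, CCNG1 -0.081). With ZNF783 siRNA, 18 members and 4428 genes were called, 12 and 2718 with DESeq2, and 12 and 2931 at an adjusted p below 0.01. The fit of all 12 libraries, which includes ETS1 siRNA replicate 1, called 7 members and 824 genes. MDM2, MDM4, POLH and GADD45A were among the members that lost their calls there. Without 1 library, 14 to 17 members and 3485 to 4127 genes were called. For the difference, 5 members and 330 genes were called, 10 and 978 without a filter, 10 and 716 with the GC and length adjustment, 20 and 3219 with it and without ETS1 siRNA replicate 1, 2 and 100 at an adjusted p below 0.01, 663 genes with DESeq2, and 3 to 15 members and 140 to 2735 genes without 1 library. The causes of these shifts were not tested. No called member reversed its sign in any alternative; uncalled values with a changed sign were at most 0.14 on the log2 scale in size. Same-numbered siRNA and control libraries did not deviate together (correlations -0.04 to 0.06). With 3 libraries per group, such correlations cannot decide if the numbers mark pairs. With the replicate block the difference called 2 members and 54 genes, and 18 members were called with ZNF783 siRNA. Members under 3 CPM (TP53I3, TIGAR) limit what depth can show.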
